A study of Mus musculus with 9 samples.

Results

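The Dlx genes (Dlx1 to Dlx6) and the Msx genes (Msx1 to Msx3) encode related homeodomain transcription factors, and these 9 genes were followed here through the open chromatin of the embryonic heart field. Their regions were chosen by gene symbol alone, as the distinct entries of the wild-type list of accessible regions that carry one of the 9 names. This gave 8 of 17164 distinct regions, which fell to 5 of the 9 genes. Msx1, Msx2 and Msx3 each had 2 regions, Dlx1 and Dlx5 had 1 each, and Dlx2, Dlx3, Dlx4 and Dlx6 had no assigned region.

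The assay was ATAC-Seq, which uses Tn5 transposase to cut and tag open DNA, and the tissue was the heart together with pharyngeal mesoderm, dissected from mouse embryos at E8.75 (6 somites). The study comprised 3 libraries each from wild-type embryos, Isl1-/- embryos, which lack the LIM-homeodomain factor Isl1, and embryos of the genotype Isl1-Cre+/-/Brg1 fl/fl, in which Cre under control of the Isl1 gene removes the chromatin remodeler Brg1 from Isl1-expressing cells and their descendants. All values below come from 1 list of regions common to the 3 wild-type libraries, and the mutant groups were not analysed here. The list holds no value per library, so no spread between replicates and no test between groups could be given, and the read depth is unknown.

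Dlx and Msx proteins bind short AT-rich sequences and pattern the pharyngeal arches, limbs, forebrain and skull. The Dlx genes lie in pairs that are transcribed toward each other and can share enhancers, whereas the Msx genes lie alone and Msx1 and Msx2 are well-known targets of BMP signaling. In the early embryo Msx1 and Msx2 act in neural crest, limb and the outflow tract and atrioventricular cushions of the heart, while Msx3 is known for the dorsal neural tube.

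Sequences of 5 stretches are shown because they carry the positions of the results. The first pair are parts of the regions at the only open starts among the 9 genes, beside the start rather than centered on it. The others are the 300 bp centers of the Dlx5 region and of both Msx2 regions. All are from the mouse build mm9 (NCBIM37) and read 5′ to 3′ on the strand of the gene. In the first pair capitals mark CpG dinucleotides, of which the Dlx1 stretch holds 18 in 272 bp and the Msx1 stretch 21 in 300 bp. The Dlx1 stretch is coding sequence at chr2:71368057-71368328 on the plus strand, and the Msx1 stretch is the DNA just before its start at chr5:38215823-38216122 on the minus strand. The Dlx1 stretch holds 272 of the 278 coding bp of its region, so it is not all of its coding part.
Dlx1 coding part of the open start: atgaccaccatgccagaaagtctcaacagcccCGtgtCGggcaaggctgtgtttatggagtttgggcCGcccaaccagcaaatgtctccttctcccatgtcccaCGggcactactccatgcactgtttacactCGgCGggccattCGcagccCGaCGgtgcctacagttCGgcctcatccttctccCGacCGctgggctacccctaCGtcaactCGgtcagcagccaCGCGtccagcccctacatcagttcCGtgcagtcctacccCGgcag
Msx1 sequence upstream of the start: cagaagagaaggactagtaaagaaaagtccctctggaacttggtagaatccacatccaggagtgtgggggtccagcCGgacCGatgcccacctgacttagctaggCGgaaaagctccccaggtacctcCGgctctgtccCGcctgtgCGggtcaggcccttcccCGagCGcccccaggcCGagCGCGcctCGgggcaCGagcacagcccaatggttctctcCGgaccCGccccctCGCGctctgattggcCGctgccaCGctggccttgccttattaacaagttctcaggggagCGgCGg
In the next 3 stretches capitals mark matches to the motifs described further on. The Dlx5 stretch lies at chr6:6828669-6828968, the stretch upstream of Msx2 at chr13:53571366-53571665 and that downstream of Msx2 at chr13:53557563-53557862, all on the minus strand.
Dlx5 intronic center: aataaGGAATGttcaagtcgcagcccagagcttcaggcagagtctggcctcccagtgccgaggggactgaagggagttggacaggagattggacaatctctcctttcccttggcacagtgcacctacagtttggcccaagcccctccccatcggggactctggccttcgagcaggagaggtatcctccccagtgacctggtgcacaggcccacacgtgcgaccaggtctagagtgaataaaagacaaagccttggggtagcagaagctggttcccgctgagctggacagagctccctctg
Msx2 upstream center: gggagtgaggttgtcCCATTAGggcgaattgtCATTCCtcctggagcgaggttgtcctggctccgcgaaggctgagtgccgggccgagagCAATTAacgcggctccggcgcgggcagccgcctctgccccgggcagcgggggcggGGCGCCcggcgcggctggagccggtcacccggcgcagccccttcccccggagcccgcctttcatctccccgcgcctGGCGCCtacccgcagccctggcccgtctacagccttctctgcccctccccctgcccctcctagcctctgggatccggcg
Msx2 downstream center: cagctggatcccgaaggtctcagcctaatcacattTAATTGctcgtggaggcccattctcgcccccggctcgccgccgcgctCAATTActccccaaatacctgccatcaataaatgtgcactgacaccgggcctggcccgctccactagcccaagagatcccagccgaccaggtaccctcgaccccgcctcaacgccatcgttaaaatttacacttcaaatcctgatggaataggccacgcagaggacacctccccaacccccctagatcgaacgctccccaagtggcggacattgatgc

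An assigned region was found for 5 of the 9 genes, or 55.6% (95% Wilson interval 26.7 to 81.1%, for counting error only). Among all 21027 coding genes of the background the share was 49.3%, which lies inside that interval. A region within 1 kb of the deposited transcription start site (TSS) was found for Dlx1 and Msx1 only, which is 2 of 9 genes or 22.2% (6.32 to 54.7%), beside 40.6% of coding genes. Having 2 or more regions was the property of 3 of 9 genes, all of them Msx genes, beside 12.9% of coding genes. With 9 genes, none of which is an independent sample of the tissue, these shares are descriptions.

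**Figure D1:**
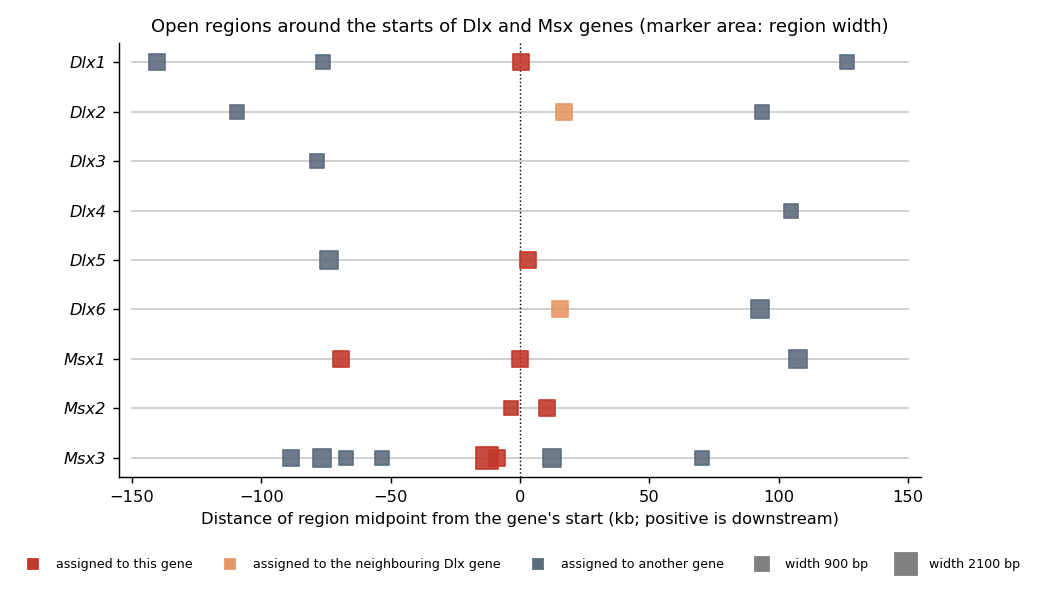
Each row is one gene, the horizontal axis gives the distance of a region's midpoint from the gene's start in kb, in the direction of transcription, and each square is one accessible region of the wild-type list, with an area that scales with its width. Regions of Msx2 and Msx3 sit on one or both sides of an uncovered start, Dlx1 and Msx1 have a region at 0, and the rows of Dlx3 and Dlx4 hold 1 region each, assigned to another gene.

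Msx1, which in the embryo keeps progenitor cells undifferentiated, was the Msx gene with an open start. Its proximal region spanned chr5:38215160-38216348, 1189 bp wide, with its center 70 bp downstream of the TSS. It covered 413 bp of coding sequence, 250 bp of untranslated exon and 526 bp upstream of the gene. Its width was ordinary for its class, as 61.9% of the regions within 1 kb of a TSS were at least as wide, and so was its CpG frequency of 6.73 per 100 bp, which 35.7% of that class reached.

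The other Msx1 region lay far from the gene, at chr5:38284555-38285753, 69330 bp upstream of the TSS in intergenic DNA. It was 1199 bp wide, close to the width at the start, and 21.0% of the regions beyond 1 kb were at least as wide. No other accessible region was listed between these 2, and no annotated start of another gene was nearer to it than that of Msx1.

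Msx2, a partner of Msx1 in skull, skin and cushion development, had no region over its start but one on each side. The upstream region spanned chr13:53571083-53571948, 866 bp wide, and its center lay 3366 bp before the deposited TSS. The downstream region spanned chr13:53557175-53558251, 1077 bp wide, 10436 bp past the TSS and 4537 bp beyond the 3′ end of the gene. Together they enclosed the gene in 12.8 kb free of regions, a short interval beside the median of 72839 bp between neighboring regions, since 10.1% of the gaps in the genome were shorter. The GENCODE start of Msx2 lies nearer to the upstream region, at 3072 bp, than the start used in the deposited list, and neither start was covered.

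Msx3 also had an uncovered start, with both regions upstream of it. The nearer region spanned chr7:147243467-147244615, 1149 bp wide and 9054 bp upstream, and the farther spanned chr7:147246672-147248842, 12770 bp upstream. The farther region was the widest of the 8 at 2171 bp, a width that 1.96% of the regions beyond 1 kb reached. The surroundings were also rich in regions, since 8 had their midpoint within 100 kb of the Msx3 start, and 99.1% of coding genes had no more than that. The median over coding genes was 2, the number found for Dlx1, Dlx2, Dlx5, Dlx6, Msx1 and Msx2.

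The Dlx genes were read as their 3 pairs. In the Dlx1-Dlx2 pair, which is best known from forebrain interneurons and the first pharyngeal arch, a single region lay at Dlx1 and none at Dlx2. It spanned chr2:71367134-71368328, 1195 bp wide, with its center 229 bp downstream of the Dlx1 TSS. It contained 3 of the 6 annotated starts of Dlx1, and its bases were 278 bp of coding sequence and 917 bp of untranslated exon. The start of Dlx2 lay 16276 bp from this region, the nearest one to it.

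The Dlx5-Dlx6 pair, which specifies the lower jaw downstream of endothelin signaling, also held 1 region. It spanned chr6:6828274-6829364, 1091 bp wide, with its center 3249 bp downstream of the Dlx5 TSS in an intron. Of its bases 876 were intronic and 215 coding. No region was listed at either start, and the Dlx6 start lay 15021 bp from the Dlx5 region. The stretch from the neighboring Shfm1 region to the neighboring Sdhaf3 region measured 296.6 kb and held this region alone.

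The Dlx3-Dlx4 pair, where Dlx3 is known for placenta, hair and teeth, held no region at all. The nearest region was one assigned to Pdk2, 78529 bp from the Dlx3 start and 104241 bp from the Dlx4 start. The interval without regions around both genes ran from Pdk2 to Kat7 and measured 267.2 kb, longer than 85.7% of the gaps between neighboring regions. By the window of 100 kb Dlx4 had 0 regions and Dlx3 had 1. A gene without a region is not shown to be closed, because a region had to be called in each of the 3 libraries to be listed. In dissected tissue, a site open in few cells and a site weakly open in many cannot be told apart.

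For all 8 regions the nearest GENCODE start belonged to the gene named in the list, and 0 of the 8 contained a 31-base word that occurs elsewhere in the genome, so the sequences could be placed uniquely. The first of these can follow from how the list assigned genes to regions. Neither is given for all regions, so they describe these 8 only. Of the 8 regions 6 lay more than 1 kb from the TSS (beside 47.1% of all regions) and 3 lay more than 10 kb away (37.5%, beside 39.3%). The median width was 1169 bp, against 1123 bp over all regions. Within the distal class the 6 regions had a median width of 1120 bp (866 to 2171 bp) and all 8081 regions one of 950 bp.

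What the distal regions shared, beyond the genes they were assigned to, was their base composition. Their CpG frequencies were 6.70 and 5.94 per 100 bp for Msx2 upstream and downstream, 4.79 and 3.36 for the nearer and farther Msx3 regions, 4.22 for Dlx5 and 3.75 for the distal Msx1 region. Across all 8081 distal regions the median was 1.35 and the interquartile range ran from 0.787 to 2.31. All 6 therefore exceeded the upper quartile of the class, and 4 of them, both Msx2 regions, Dlx5 and the nearer Msx3 region, also exceeded the 90th percentile of 4.21. Their median of 4.50 lay nearer to the median of 5.93 found in regions within 1 kb of a TSS.

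Because CpG frequency falls with distance from genes, the distal regions were also read in narrower classes. Among the 1341 regions at 1 to 10 kb the median was 2.46, and 27.5% were as rich as the Dlx5 region, 20.7% as rich as the nearer Msx3 region and 7.90% as rich as the upstream Msx2 region. Among the 6740 regions beyond 10 kb the median was 1.25, and 9.53% were as rich as the farther Msx3 region, 7.95% as rich as the distal Msx1 region and 3.09% as rich as the downstream Msx2 region. The standing of Dlx5 and of the nearer Msx3 region was thus less marked among regions at a like distance, while both Msx2 regions remained in the highest 10% of their class. The distal Msx1 region and the farther Msx3 region were also in the highest 10% of their narrower class. The count in the highest 10% was thus 4 in either reading, but not of the same 4 regions. When only regions of the median width or more were compared, both Msx2 regions and the Dlx5 region dropped out. The 90th percentile of the 2213 distal regions left was 6.15, and 0 of the 3 distal Msx1 and Msx3 regions reached it, the nearer Msx3 region at 4.79 included.

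**Figure D2:**
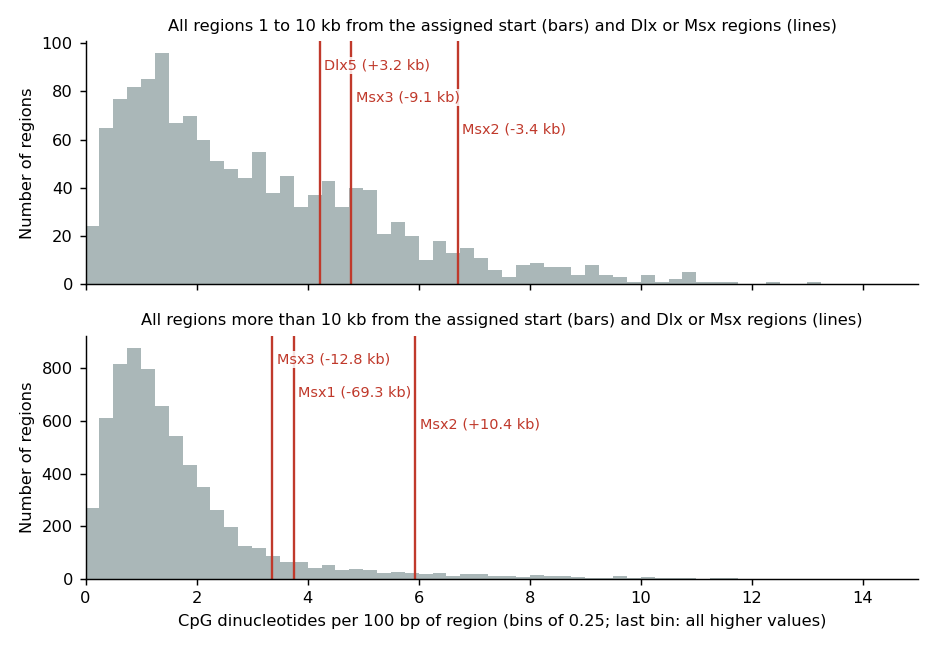
The bars count all accessible regions by CpG dinucleotides per 100 bp, at 1 to 10 kb (upper panel) and more than 10 kb (lower panel) from the assigned start, and red lines mark the Dlx and Msx regions with their distance in kb. The lines at 3.36, 3.75 and 5.94 in the lower panel stand in the sparse right tail, while those at 4.22 and 4.79 in the upper panel stand within the body of the distribution.

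The GC content was also high, with a median of 59.1% in the 6 distal regions and 47.5% in all distal regions. The upstream Msx2 region had the highest value of the 6, 62.9%, which 2.26% of the distal class reached. The distal Msx1 region had the lowest, 54.8%, which 14.5% of the class reached. In the proximal pair the GC content was 63.3% for Dlx1 and 62.8% for Msx1, beside a class median of 58.1%.

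CpG-rich starts are commonly open in many tissues, so the starts of the 9 genes were also compared with other coding genes of like composition. Within 500 bp of its starts, each of the 9 genes had a CpG frequency between 4.70 (Msx2) and 8.09 (Dlx6) per 100 bp. Of the 5780 coding genes in this range, 69.3% had an accessible site within 1 kb of an annotated start, and 2 of the 9 Dlx and Msx genes did. Dlx2 (7.39), Dlx4 (7.69), Dlx6 (8.09) and Msx3 (7.49) all fell in the same decile of coding genes as Dlx1 (7.89), and that decile had an open start in 71.4% of its genes. These 4 starts were thus not listed as accessible although their CpG frequency was close to that of Dlx1.

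**Figure D3:**
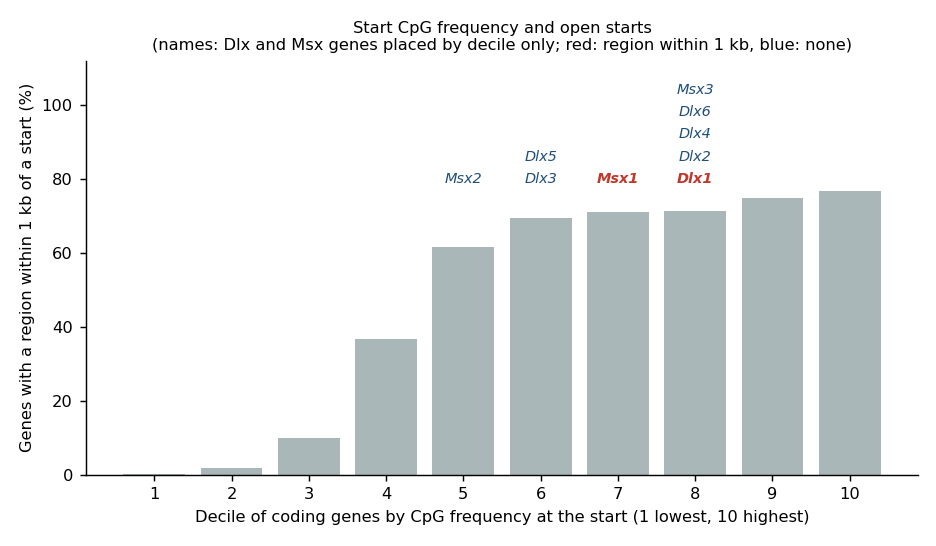
Bars give the percentage of coding genes with an accessible region within 1 kb of a start, for deciles of genes ordered by the CpG frequency of their starts, and the names above the bars show the decile of each Dlx and Msx gene. The share rises to 61.7% in decile 5 and 71.4% in decile 8, and Dlx1 and Msx1, in red, are the genes of the 9 with such a region.

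The chromosomal neighbors were taken as the 2 nearest coding genes on each side of the 6 loci. Of these 24 genes, 11 were accessible within 1 kb of a start, including Hat1 and Metap1d beside Dlx1-Dlx2, Pdk2 and Myst2 (an older name of Kat7) beside Dlx3-Dlx4, and Shfm1 and Slc25a13 beside Dlx5-Dlx6. Over all coding genes the share was 40.6%, by deposited distances rather than GENCODE starts. The count of neighbors was thus near that of coding genes at large. The interval around Dlx3 and Dlx4 thus ended on both sides at starts that were accessible in the same list. None of the 4 neighbors of Msx2 (Ror2, Sptlc1, Gm5449 and Drd1a) was accessible within 1 kb of a start. Their start CpG frequencies were 9.49, 5.69, 1.80 and 5.09 per 100 bp, in that order. The next listed site below the downstream Msx2 region was a Ror2 region 249060 bp away, and the next above the upstream Msx2 region was a Cplx2 region 826359 bp away.

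Short motifs were searched on both strands in the central 300 bp of each region, as plain letter matches that describe a sequence and do not show binding. The homeodomain core TAATTA was found in 0 of the 8 regions, and in 8.11% of all distal and 0.969% of all proximal regions. Over the whole length of the regions it occurred once in the distal Msx1 region and once in the farther Msx3 region. The related core TAATTG was found in 2 centers, both of Msx2, and in 11.3% of all distal regions. Over the whole length it also occurred once in the farther Msx3 region. The downstream Msx2 stretch printed above holds 2 matches, one of them as its reverse complement CAATTA, and the upstream stretch holds 1.

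The letters CTAATGG, a form of the site bound by Isl1, were found in 1 of the 8 regions, the upstream region of Msx2, and in 2.90% of all distal regions. It appears in the printed stretch as its reverse complement CCATTAG, 129 bp from the center of the region, and a further match lay at 170 bp, outside that stretch. The same region held 3 matches to GGCGCC, a GC-rich element bound by Smad proteins, 2 of them in the center. That motif was present in 1 of the 8 centers and in 6.93% of distal and 28.5% of proximal regions. Matches to short letters depend on base composition, and this element consists of G and C alone.

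Other motifs were at low counts. GGAATG, the core of TEAD sites, was found in 2 centers (Dlx5 and upstream Msx2) and in 22.2% of distal regions. CAGATG, an E-box, was found in 2 (the distal Msx1 and the nearer Msx3 region) and in 21.8% of distal regions. AGATAA, bound by factors of the GATA family, was found once, in the distal Msx1 region, beside 14.5% of distal regions, and ACAATG, a Sox site, once, in the Dlx1 region, beside 5.12% of proximal regions. TGACAG, a Meis site, was found in no center, beside 23.3% of distal regions. Over the whole length it occurred once in the distal Msx1 region and once in the nearer Msx3 region. Whole-length matches to GGAATG were also present in the downstream Msx2 region and both Msx3 regions. ACAATG also occurred in the farther Msx3 region, and CAGATG in the Msx1 region at the start. Shares of the class are given for centers only, so whole-length matches have no comparison. The centers in which these letters occurred were too few to set apart from the shares of the class.

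Of the BMP pathway genes, which act with Dlx and Msx factors, 16 of 21 had a region (76.2%, 54.9 to 89.4%), beside 49.3% of coding genes. Within 1 kb of the start 13 of the 21 had one (61.9%, 40.9 to 79.2%), beside 40.6% of coding genes. This comparison did not take the CpG frequency of the starts into account, with which the share of open starts rises. These 13 included the ligands Bmp2 and Bmp7, the receptors Bmpr1a, Bmpr1b, Bmpr2 and Acvr1, and the transducers Smad1, Smad4 and Smad5. Bmp4, a ligand that acts upstream of Msx genes in many tissues, had regions beyond 1 kb only. The antagonists Nog and Chrd and the inhibitory Smad6 had none, and neither had Smad9 or Id1. The antagonist Grem1 and the inhibitory Smad7 each had a region within 1 kb of the start.

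Partners in arch patterning had a region in 9 of 18 cases (50.0%, 29.0 to 71.0%), close to the 49.3% of coding genes. Within 1 kb of the start there were 4, namely the endothelin receptor Ednra, its downstream factor Hand2, and Eya1 and Meis2. The ligand Edn1 had a region beyond 1 kb only. Gsc and Barx1, which act with or after Dlx genes in the jaw, had none.

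Other homeobox families were in the same range. Paired-like genes (Pitx, Prrx and Alx) had a region in 3 of 8 cases (37.5%, 13.7 to 69.4%), with 9 regions in all, and Nkx2 and Nkx3 genes in 3 of 9 (33.3%, 12.1 to 64.6%), with 3 regions. All these intervals overlapped that of the Dlx and Msx genes. Within 1 kb of the start the share was 25.0% (2 of 8, 7.15 to 59.1%) for paired-like genes. For Nkx2 and Nkx3 genes it was 22.2% (2 of 9, 6.32 to 54.7%), the same as for the Dlx and Msx genes. A low share of open starts was thus not particular to the Dlx and Msx genes. The median CpG frequency of the distal regions was 1.85 per 100 bp for the 6 of the paired-like genes and 2.14 for the single one of the Nkx genes, and 4.50 for the 6 of the Dlx and Msx genes. It was 1.57 for the 25 distal regions of the BMP pathway genes and 1.13 for the 21 of the arch partners. Among the lists of cell type markers it was 6.77 for the 3 distal regions of blood markers and 3.44 for the 6 of endoderm markers, so a high value was not limited to the Dlx and Msx genes.

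**Figure D4:**
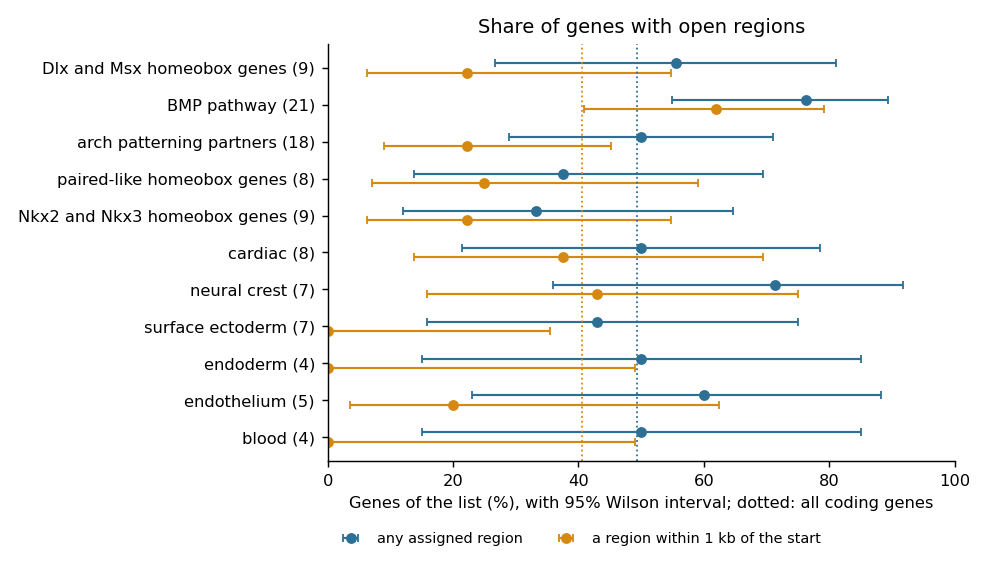
Points give the percentage of genes in each list with any assigned region (blue) and with a region within 1 kb of the start (orange), bars are 95% Wilson intervals, and dotted lines show the 49.3% and 40.6% of all coding genes. The Dlx and Msx genes stand at 55.6% and 22.2%, and the BMP pathway at 76.2% and 61.9%.

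Cells of several kinds could contribute to the dissected tissue. Cardiac markers had a region in 4 of 8 cases, with Isl1, Hand2 and Mef2c open within 1 kb and Nkx2-5, Tbx5, Tnnt2 and Myh6 without a region. Markers of neural crest, where Dlx and Msx genes are active, had a region in 5 of 7 cases, within 1 kb for Ets1, Twist1 and Sox9, and none at Sox10 and Tfap2a. Surface ectoderm had 3 of 7, endoderm 2 of 4, endothelium 3 of 5 and blood 2 of 4, with a region within 1 kb only at Kdr among these 4 lists. For any region, the Wilson interval was 35.9 to 91.8% for neural crest and 21.5 to 78.5% for cardiac markers. Both contained the 49.3% of all coding genes, as did the intervals of the other marker lists. Within 1 kb, only the interval of surface ectoderm (0 to 35.4%) lay apart from the 40.6% of coding genes. The part of each cell type in the Dlx and Msx regions was not tested.

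The genes most like Dlx5 in the number of regions and their median signed distance were C130080G10Rik, Chadl and Krt10 of 8441 genes with 1 region, within 49 bp of its distance. Of 1874 genes with 2 regions, the closest in the same sense were Ndrg1, Mir6995 and Cop1 for Msx1 and Insig2, Cldn12 and Cerkl for Msx2, and for Msx3 they were Zdbf2, Reg4 and Nedd4. The medians differed by 16 to 148 bp for these 3 members. For 2 regions the median is the midpoint of their distances, so genes with a like median can have regions in other places. With so many genes to choose from, close medians are to be found for most genes.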

How the data were processed

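ATAC-Seq libraries came from hearts and pharyngeal mesoderm at E8.75, 3 per genotype. According to the methods, the authors mapped reads to mm9 with bowtie2, removed duplicates with Picard 1.136, called peaks per library with MACS14, removed blacklisted peaks and kept regions shared by the replicates with bedtools 2.15 (at least 1 bp of overlap). The coordinates of a shared region are those of 1 library, so the error of a width is unknown. The deposited columns give start and end, and a signed distance score in bp from the region's center to the TSS of 1 assigned gene. The rule of that assignment is not given in the sources used here.

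Identical entries among 17432 were counted once. Sequence and gene structure were from NCBIM37 with the GENCODE annotation of that build, and gene types from the RefSeq table of GRCm38.p6, used for names only. The coding background was 21027 protein-coding genes that have a curated transcript in RefSeq. Within 1 kb meant a deposited distance of at most 1000 bp, except for neighbors and CpG-matched genes, where GENCODE starts were used. The CpG frequency of a start was the highest over a gene's starts, 500 bp to each side. No column was left unmapped. The genes named were the 9 members, the 2 nearest coding genes on each side of each locus, the 3 genes closest in number and median distance of regions, and fixed lists. For 1 listed gene no separate result is reported here, but list counts include it. Members and lists were chosen with earlier results of these data known. Counts and shares were descriptions with Wilson intervals, without tests, and the computations were tested on simulated data. Alternatives were other distance limits, GENCODE starts, wider regions only, all entries as deposited, other motif windows and other coding backgrounds. Python 3.11.15, numpy 2.4.6, pandas 2.3.3, scipy 1.17.1 and matplotlib 3.10.9 were used.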

Additional observations from a re-analysis of the deposited data

How the results depend on the processing

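Of 26 alternative values, 19 stayed within 1.5 times the value reported, for counts, within the 95% Wilson interval, for shares, or between the lowest and highest region, for medians. These bounds are wide for 8 regions, and inside them the median CpG frequency went from 5.36 to 7.83 per 100 bp with the central 300 bp, the share beyond 10 kb from 37.5% to 50.0% with a limit of 5 kb, and the share with TAATTA from 0 to 12.5% with the central 500 bp. Keeping only regions of the median width or more left 3 genes with a region instead of 5, and 5 regions instead of 8, since fewer regions enter. It also gave 0 instead of 4 distal regions in the highest 10% of CpG frequency, where fewer member regions entered and the 90th percentile was 6.15 instead of 4.21. A limit of 5 kb in place of 1 kb gave 4 genes with a region near the TSS instead of 2, and a limit of 20 kb in place of 10 kb gave 12.5% of regions instead of 37.5%. The share of coding genes with a region was 47.3% over every protein-coding gene of the RefSeq table and 43.1% over GENCODE coding genes, instead of 49.3%. The count of distal regions in the highest 10% of CpG frequency, and its 3 alternatives (narrower distance classes, wider regions, central 300 bp), were chosen after seeing the data. No paired analysis was possible because the list is common to the 3 wild-type libraries and holds no value per library, and for the same reason no library could be left out. Depth is unknown, so the limit of detection at a start without a region is unknown too.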
